A study of Mus musculus with 15 samples.

Results

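Genes of cardiac fatty acid use were followed in mouse left ventricle, 39 of the 40174 gene symbols in the deposited count tables, chosen by name as genes of uptake, activation, the carnitine shuttle, beta-oxidation and the thioesterases. All 39 passed the filter on low counts that left 17588 genes. The hearts came from 2-month-old C57BL/6 mice with a point mutation in Rbm20, an RNA-binding protein of striated muscle known for regulating titin splicing. The groups were G-line HOM (genotype given as Rbm20 S639G -/-), G-line HET (Rbm20 S639G +/-), A-line HOM (Rbm20 S637A -/-), A-line HET (Rbm20 S637A +/-) and WT, which carries neither change. The labels name no treatment, and total RNA libraries were sequenced. The study set out to examine how these mutations act in cardiac remodelling. A gene count cannot check which allele a library carries.

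Each group had 3 deposited libraries, but the columns for replicates 2 and 3 of A-line HOM repeated those of WT replicates 2 and 3 count for count in all 40174 symbols. Each such library was used once, as WT, which left 3 G-line HOM, 3 G-line HET, 1 A-line HOM, 3 A-line HET and 3 WT libraries. The 13 libraries held 12959087 to 29436407 counts. Nothing in the labels says that replicates were separate animals. The p-values therefore refer to the spread among these libraries, which may in part be technical. Cardiomyocyte markers were abundant in every library, with 15 markers summing to 53580 to 73540 CPM (the count scaled to a common library size). G-line HOM replicate 1, A-line HET replicate 3 and WT replicate 2 also held the atrial transcript Myl7, at 45.8, 240 and 524 CPM. Elsewhere Myl7 had at most 3.43 CPM. Sln, of the same list of 4 atrial markers, had 7.54, 57.5 and 155 CPM in them, against at most 0.492 CPM elsewhere. Nppa, also of that list, was high outside them too, at 4671 to 7881 CPM in G-line HOM and 4327 CPM in A-line HOM. In WT Nppa had 64.2 to 1194 CPM. G-line HOM replicate 1 and A-line HET replicate 2 stood apart in the clock gene Arntl, at 24.6 and 29.04 CPM, against 1.17 to 5.28 CPM in the other 11. Mitochondrial ribosomal RNA took 10.8% to 13.5% of the counts in G-line HOM, 15.4% to 16.7% in G-line HET, 15.1% in A-line HOM, 13.2% to 17.1% in A-line HET and 20.2% to 23.4% in WT.

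The adult heart draws most of its energy from long-chain fatty acids. They cross the sarcolemma with the help of CD36 and transport proteins, travel on binding proteins, are activated to acyl-CoA by synthetases and enter mitochondria as carnitine esters. Inside, each round of beta-oxidation shortens the chain through a dehydrogenase, a hydratase, a second dehydrogenase and a thiolase, and passes electrons on through the electron transfer flavoprotein. Malonyl-CoA inhibits the first carnitine step. Many of these genes are known targets of the nuclear receptors PPAR-alpha and ERR, and lower expression of the pathway is a known feature of failing hearts.

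Promoter sequences of members that the results turn on are shown from RefSeq (build GRCm38.p6, from 250 bases before to 50 after the start). That table held 32 of the 39 members, without Fabp4, Cpt1b, Crat, Acaa2, Decr1, Hsd17b4 and Acot13. The counts were made on another build, mm39, and no coordinate of the counted genes is used. Hadha and Hadhb, which encode the alpha and beta subunits of the mitochondrial trifunctional protein, lie head to head on chromosome 5. Their starts are 272 bases apart. Both windows are shown because the genes share 228 bases of them, marked in capitals. The Hadha window is chr5:30154931-30155230 on the minus strand and the Hadhb window chr5:30155003-30155302 on the plus strand.
Hadha: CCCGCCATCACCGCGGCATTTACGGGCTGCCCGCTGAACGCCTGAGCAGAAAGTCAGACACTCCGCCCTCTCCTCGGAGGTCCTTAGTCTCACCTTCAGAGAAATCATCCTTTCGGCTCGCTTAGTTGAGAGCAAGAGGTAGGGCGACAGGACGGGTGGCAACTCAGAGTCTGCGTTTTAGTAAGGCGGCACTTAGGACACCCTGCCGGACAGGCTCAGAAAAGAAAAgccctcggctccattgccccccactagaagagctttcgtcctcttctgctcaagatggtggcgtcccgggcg
Hadhb: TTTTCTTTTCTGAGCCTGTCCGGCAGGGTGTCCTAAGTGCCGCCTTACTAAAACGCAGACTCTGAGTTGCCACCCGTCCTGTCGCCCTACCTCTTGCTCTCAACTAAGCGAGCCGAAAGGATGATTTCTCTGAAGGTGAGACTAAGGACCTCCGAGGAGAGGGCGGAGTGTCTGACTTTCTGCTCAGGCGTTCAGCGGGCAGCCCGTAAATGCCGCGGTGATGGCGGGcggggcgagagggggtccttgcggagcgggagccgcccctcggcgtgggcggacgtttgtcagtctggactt

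Further windows are shown because they hold the letters AAGGTCA, a core that ERR binds, on the strand opposite to the gene, so that it reads TGACCTT as printed. They were the only 3 of the 32 members with it. The Acsl6 window (chr11:54303574-54303873, plus strand) holds the longer TCAAGGTCA, in capitals, 167 bases before the start. A further TGACCTT in it is left in lower case. In the Acacb window (chr5:114165268-114165567, plus strand) the capitals mark AAGGTCA, from base 43 after the start. In the Acadm window (chr3:153944594-153944893, minus strand) they mark it from 249 bases before the start.
Acsl6: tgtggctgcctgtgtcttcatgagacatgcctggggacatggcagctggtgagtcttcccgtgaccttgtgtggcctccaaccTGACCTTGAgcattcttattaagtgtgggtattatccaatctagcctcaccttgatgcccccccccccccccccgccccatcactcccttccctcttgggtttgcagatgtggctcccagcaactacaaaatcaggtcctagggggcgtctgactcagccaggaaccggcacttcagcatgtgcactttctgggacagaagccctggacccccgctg
Acacb: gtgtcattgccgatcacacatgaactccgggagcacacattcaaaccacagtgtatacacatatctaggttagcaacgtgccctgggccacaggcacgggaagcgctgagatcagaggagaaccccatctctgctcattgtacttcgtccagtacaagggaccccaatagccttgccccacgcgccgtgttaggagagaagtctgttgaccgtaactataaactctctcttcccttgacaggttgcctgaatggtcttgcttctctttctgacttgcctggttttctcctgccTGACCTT
Acadm: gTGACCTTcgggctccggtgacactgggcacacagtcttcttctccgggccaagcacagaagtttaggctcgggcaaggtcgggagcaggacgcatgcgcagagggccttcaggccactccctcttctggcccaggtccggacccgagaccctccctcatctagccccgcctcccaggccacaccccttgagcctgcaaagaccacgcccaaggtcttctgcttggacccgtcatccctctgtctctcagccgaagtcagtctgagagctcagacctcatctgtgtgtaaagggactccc
Both strands of all 32851 promoter windows of the table, of 27025 genes, were searched for 5 motifs, which overlap in that shorter ones lie within longer ones. TCAAGGTCA was found for 0.466% of genes and AAGGTCA for 5.38%, against 1 and 3 of the 32 members. The shorter core AGGTCA was found for 18.1% of genes and 8 of the 32, and the repeat AGGTCANAGGTCA, which PPAR binds, for 0.0481% of genes and none of the 32. CCAAT was found for 41.1% of genes and 18 of the 32. A match is a description of letters and not a binding site.

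In G-line HOM hearts most steps of the pathway were lower than in WT. Of the 39 members 32 fell and none rose (edgeR quasi-likelihood test, adjusted p under 0.05), where 26.4% of all 17588 genes passed, 13.3% lower and 13.1% higher. The median log2 fold change of the members was -0.82, against 0.01 over all genes tested. In 33 members every G-line HOM library lay below every WT library, a separation found in 21.1% of all genes. The G-line HOM libraries stood at 49.5%, 54.1% and 60.5% of the WT mean at the median member. In bulk tissue, fewer cells of a type and less RNA per cell cannot be told apart.

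**Figure D1:**
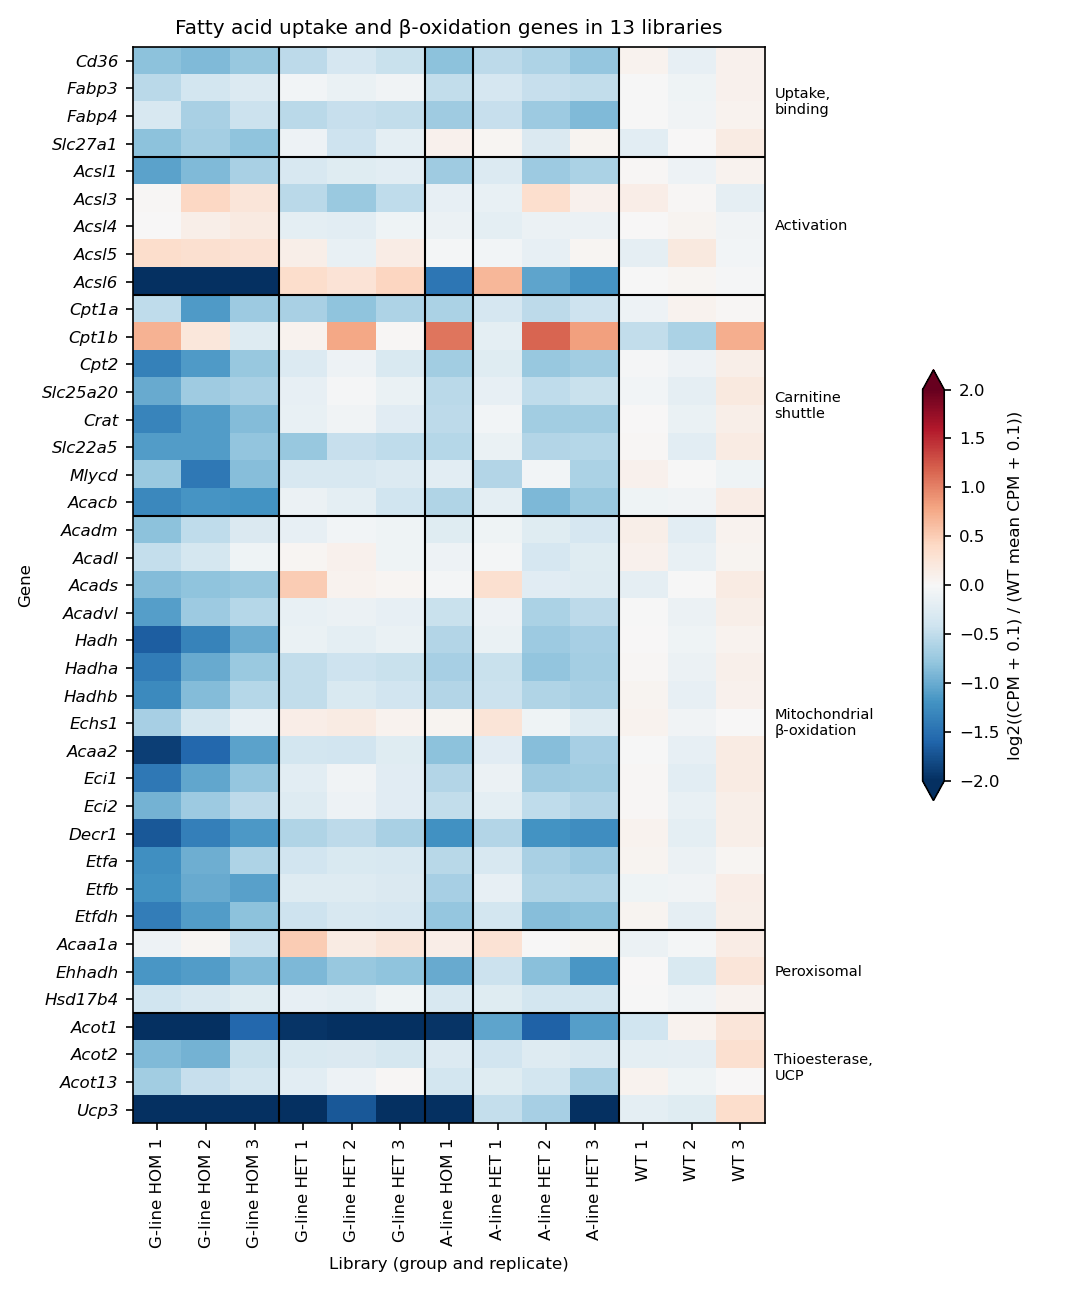
Log2 level of each of the 39 members (rows, grouped by step) relative to its WT mean in each of the 13 libraries (columns: G-line HOM, G-line HET, A-line HOM, A-line HET, WT), computed as log2 of CPM plus 0.1. The colour scale ends at 2 in both directions and deeper values have the end colour. The 3 G-line HOM columns are below WT in most rows outside the activation step, and A-line HET replicate 1 is nearer to WT than the other A-line HET columns.

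All 4 uptake and binding genes fell in G-line HOM hearts, with a median log2 fold change of -0.61. Cd36, the main fatty acid transporter of the cardiomyocyte membrane, had 1072, 1025 and 1118 CPM in G-line HOM libraries and 1994, 1691 and 2001 CPM in WT libraries. The groups were far apart, and Cd36 was 1.77-fold lower (log2 fold change -0.82 ± 0.10, SE; adjusted p = 7.91e-05). Slc27a1, a fatty acid transport protein, had 47.9, 52.5 and 48.5 CPM in G-line HOM and 73.1, 85.5 and 95.2 CPM in WT. It was 1.70-fold lower (-0.77 ± 0.12, adjusted p = 0.000344). Fabp3, the heart-type binding protein, had 1360, 1531 and 1642 CPM in G-line HOM and 1981, 1866 and 2100 CPM in WT, and Fabp4, the binding protein of adipocytes and heart endothelium, had 347, 276 and 320 CPM in G-line HOM and 431, 413 and 452 CPM in WT. Fabp3 was 1.31-fold (adjusted p = 0.00785) and Fabp4 1.37-fold lower (adjusted p = 0.00683), with no overlap of the libraries. Fabp3 shares 29.2% of its 50-base words with other genes, Fabp3-ps1 among them, so its count is uncertain. The 12 endothelial markers summed to 1181 to 1491 CPM in G-line HOM and 1304 to 1450 CPM in WT, with 1 of them lower and none higher by the test. Of 9 adipocyte markers, 7 were tested and none passed. All 9 summed to 26.5 to 45.2 CPM in G-line HOM and 17.6 to 89.3 CPM in WT, where replicate 2 held Adipoq at 11.01 and Ucp1 at 17.9 CPM. Cidea made up much of these sums, at 24.0 to 30.4 CPM in G-line HOM and 17.6 to 29.6 CPM in WT. The sums are therefore a poor measure of adipocytes. Adipoq was at 0 in G-line HOM replicate 2 and WT replicate 1. The part of these cells in the Fabp4 result was not tested.

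The acyl-CoA synthetases, which activate fatty acids, did not move as a group: 2 of 5 fell and the median was 0.10. Acsl1, the major synthetase of the heart, had 506, 573 and 679 CPM in G-line HOM and 1075, 987 and 1115 CPM in WT, 1.81-fold lower (-0.85 ± 0.13, adjusted p = 0.000278). Acsl6, a synthetase best known from brain, had 0.282, 0.141 and 1.03 CPM in G-line HOM and 9.49, 9.76 and 9.34 CPM in WT. The WT libraries were nearly equal and the G-line HOM libraries held 9, 3 and 22 counts, with a log2 fold change of -4.34 ± 0.64 (adjusted p = 0.000793). The other synthetases did not pass the test. Acsl5 had 27.6, 27.1 and 26.4 CPM in G-line HOM and 19.2, 24.9 and 20.9 CPM in WT, higher in every library with a log2 fold change of 0.32 (adjusted p = 0.0524), the 1 member of 39 above WT without overlap. Of all genes 20.6% were. Acsl3 had 6.66, 8.81 and 7.80 CPM in G-line HOM and 7.26, 6.70 and 5.80 CPM in WT, and these overlapped (0.23, adjusted p = 0.345). Acsl4 overlapped as well (0.10, adjusted p = 0.419).

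In the carnitine shuttle and its regulation, 7 of 8 members fell, with a median of -0.9998. Slc22a5, the carnitine transporter of the plasma membrane, had 14.8, 14.9 and 18.6 CPM in G-line HOM and 32.8, 27.8 and 36.2 CPM in WT, 2.01-fold lower (-1.01 ± 0.15, adjusted p = 0.00022). It shares 26.3% of its 50-base words, mainly with Slc22a21 and Slc22a4, and its count is uncertain to that extent. Cpt2, which turns acylcarnitine back into acyl-CoA at the inner membrane, had 79.0, 92.3 and 120 CPM in G-line HOM and 200, 188 and 220 CPM in WT. It was 2.09-fold lower (adjusted p = 0.000298). Crat, which moves acetyl groups between CoA and carnitine, had 164, 188 and 225 CPM in G-line HOM and 411, 373 and 441 CPM in WT, 2.13-fold lower (adjusted p = 0.000286). The largest change of the step was in Acacb, which makes the inhibitor malonyl-CoA at the mitochondrial surface. It had 174, 187 and 185 CPM in G-line HOM and 399, 404 and 472 CPM in WT, 2.33-fold lower (-1.22 ± 0.15, adjusted p = 7.91e-05). Mlycd, which degrades malonyl-CoA, was also lower, by 1.99-fold (adjusted p = 0.00317), as were the carnitine-acylcarnitine translocase Slc25a20, by 1.72-fold (adjusted p = 0.000376), and Cpt1a, the liver-type carnitine palmitoyltransferase, by 1.70-fold (adjusted p = 0.000549). Acaca, the cytosolic counterpart of Acacb and no member, averaged 34.8 CPM in G-line HOM and 38.9 CPM in WT and did not pass (-0.16, adjusted p = 0.556).

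Cpt1b, the muscle-type isoform, was the member of this step that did not pass, and its count does not stand as a level of the gene. It had 0.813, 0.565 and 0.376 CPM in G-line HOM and 0.301, 0.265 and 0.834 CPM in WT. In the GENCODE M21 annotation of GRCm38, 81.4% of its exon bases are shared with a read-through gene on the same strand, Gm44502, which had no count in any library. The part of this overlap in the low count was not tested.

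Mitochondrial beta-oxidation and electron transfer was the largest step, and 13 of its 15 members fell in G-line HOM hearts, with a median of -0.92. Hadh, the short-chain hydroxyacyl-CoA dehydrogenase, had 137, 172 and 216 CPM in G-line HOM and 436, 407 and 452 CPM in WT, 2.47-fold lower (-1.30 ± 0.17, adjusted p = 0.000124). Decr1, the reductase needed for unsaturated chains, had 138, 172 and 200 CPM in G-line HOM and 465, 389 and 479 CPM in WT. It was 2.62-fold lower (-1.39 ± 0.17, adjusted p = 0.000105). Etfb, a subunit of the electron transfer flavoprotein, had 156, 177 and 168 CPM in G-line HOM and 336, 341 and 391 CPM in WT, with the smallest adjusted p of the members (-1.09 ± 0.12, adjusted p = 2.74e-05). In GENCODE M21, 53% of its exon bases are shared with Gm45233 on the same strand. Its partner Etfa and the dehydrogenase Etfdh, which hands the electrons to ubiquinone, were 1.89-fold and 2.12-fold lower.

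Hadha, whose window is printed above, had 527, 689 and 825 CPM in G-line HOM and 1407, 1274 and 1481 CPM in WT. Its head-to-head partner Hadhb had 669, 889 and 1086 CPM in G-line HOM and 1687, 1439 and 1725 CPM in WT. Both were lower in each of the 3 libraries, Hadha by 2.04-fold (adjusted p = 0.000141) and Hadhb by 1.83-fold (adjusted p = 0.000579). Hadhb shares 19.7% of its 50-base words with other genes, Gm13910 and Gm9108 among them, which makes its count uncertain. The thiolase Acaa2 had the lowest log2 fold change of the step, at -1.47 ± 0.20 (adjusted p = 0.000203). Of the acyl-CoA dehydrogenases, named by the chain length they prefer, Acadvl (very long) was 1.72-fold, Acadm (medium) 1.43-fold and Acads (short) 1.76-fold lower. Acadl (long) overlapped with WT at -0.30 (adjusted p = 0.0698). Acads had 67.6, 71.2 and 72.8 CPM in G-line HOM and 109, 123 and 139 CPM in WT. The enoyl-CoA isomerases Eci1 and Eci2 were 2.08-fold and 1.65-fold lower, and the hydratase Echs1 did not pass (-0.37, adjusted p = 0.0518). In GENCODE M21, Dvl2 on the other strand overlaps 42.9% of the Acadvl exon bases, and counting without strand would not separate their reads.

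**Figure D2:**
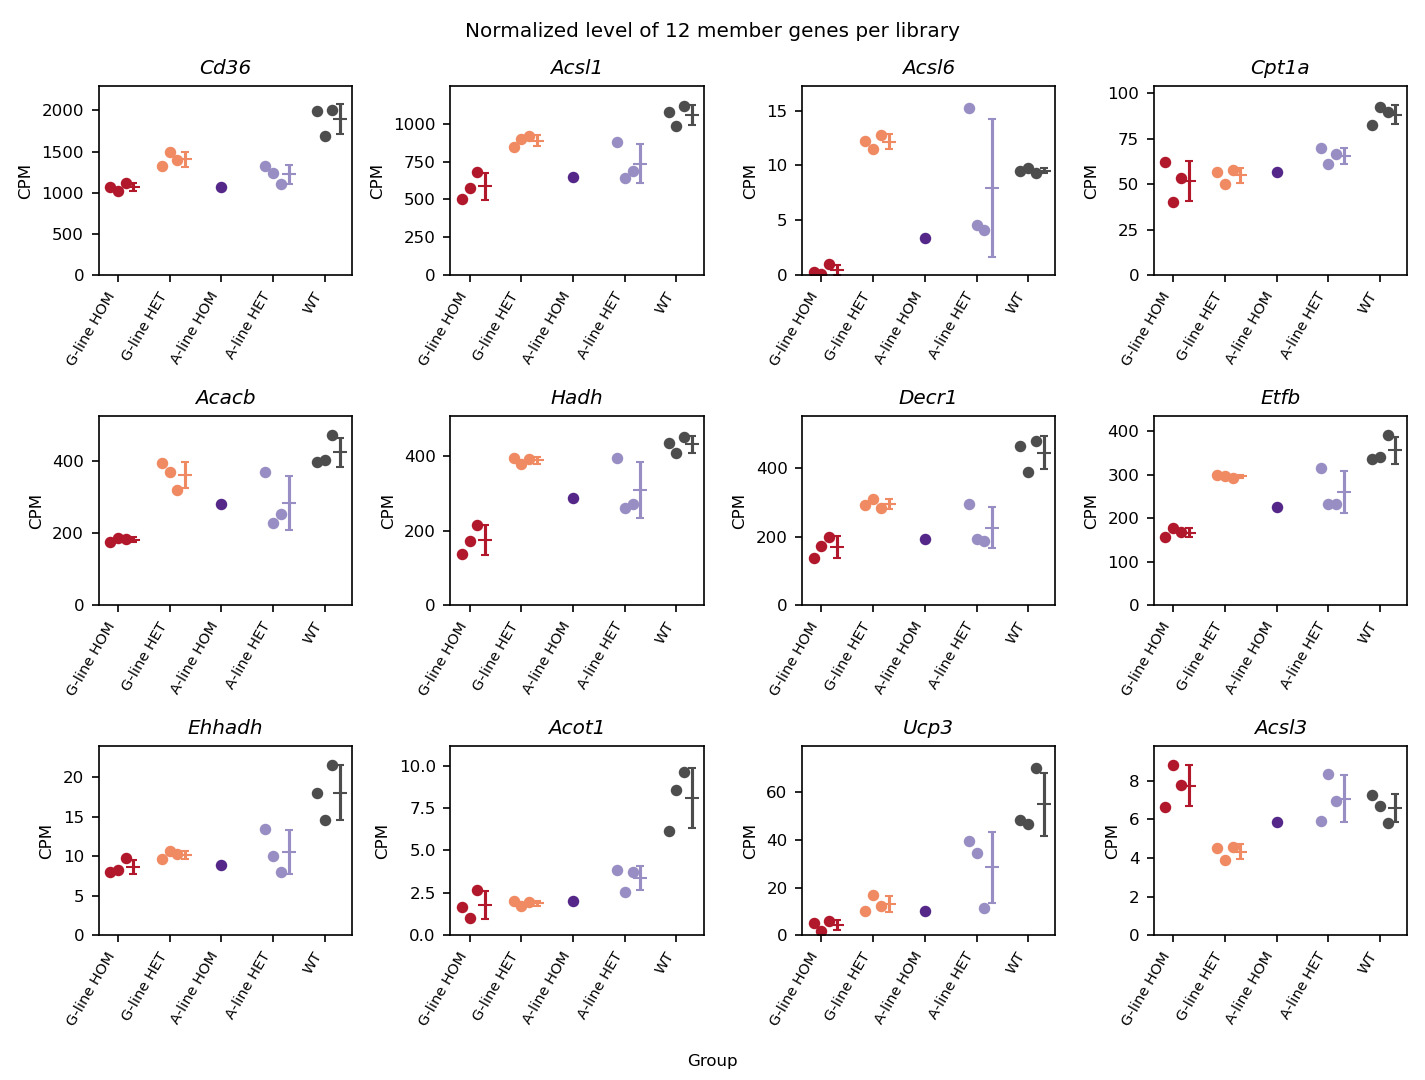
Normalized level (CPM, linear axes from 0) of 12 members in each library, by group (G-line HOM, G-line HET, A-line HOM, A-line HET, WT), points for libraries and bars for mean ± SD where a group has 3. Hadh, Etfb and Acacb are lowest in G-line HOM, with the G-line HET mean between it and WT. Cpt1a, Ehhadh and Acot1 are low in both G-line groups and also in A-line HOM and A-line HET.

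Of the peroxisomal members, which shorten very long and dicarboxylic chains, Ehhadh and Hsd17b4 fell and Acaa1a did not pass. Ehhadh, the bifunctional enzyme and a classical PPAR-alpha target, had 8.01, 8.25 and 9.72 CPM in G-line HOM and 18.1, 14.7 and 21.5 CPM in WT, 2.09-fold lower (adjusted p = 0.000583). Hsd17b4, the second bifunctional enzyme, had 88.3, 93.5 and 97.8 CPM in G-line HOM and 116, 111 and 122 CPM in WT, a small and even difference of 1.25-fold (adjusted p = 0.00712). The thiolase Acaa1a had 33.0, 36.6 and 26.5 CPM in G-line HOM and 32.6, 34.6 and 39.6 CPM in WT (-0.15, adjusted p = 0.436). It shares 12.9% of its 50-base words with other genes, mainly Acaa1b, so its count is uncertain.

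The thioesterases, which release free fatty acid from acyl-CoA, and Ucp3, a mitochondrial carrier induced by fatty acids, all fell, with a median of -1.46. Ucp3 had 5.16, 1.74 and 5.96 CPM in G-line HOM and 48.2, 46.5 and 70.2 CPM in WT, 12.7-fold lower (-3.66 ± 0.55, adjusted p = 0.00131). Acot1, the cytosolic thioesterase, had 1.69, 1.04 and 2.68 CPM in G-line HOM and 6.14, 8.55 and 9.63 CPM in WT, 4.504-fold lower (-2.17 ± 0.29, adjusted p = 0.000122). Acot2, its mitochondrial neighbour in the family, had 36.9, 35.4 and 50.1 CPM in G-line HOM and 59.6, 60.3 and 84.8 CPM in WT, 1.67-fold lower (adjusted p = 0.00172). Acot1 and Acot2 share 19.2% and 27.7% of their 50-base words with near copies, chiefly each other, so the division of reads between them is uncertain. Acot13 had 94.6, 111 and 119 CPM in G-line HOM and 160, 144 and 154 CPM in WT, 1.41-fold lower (adjusted p = 0.00507).

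**Figure D3:**
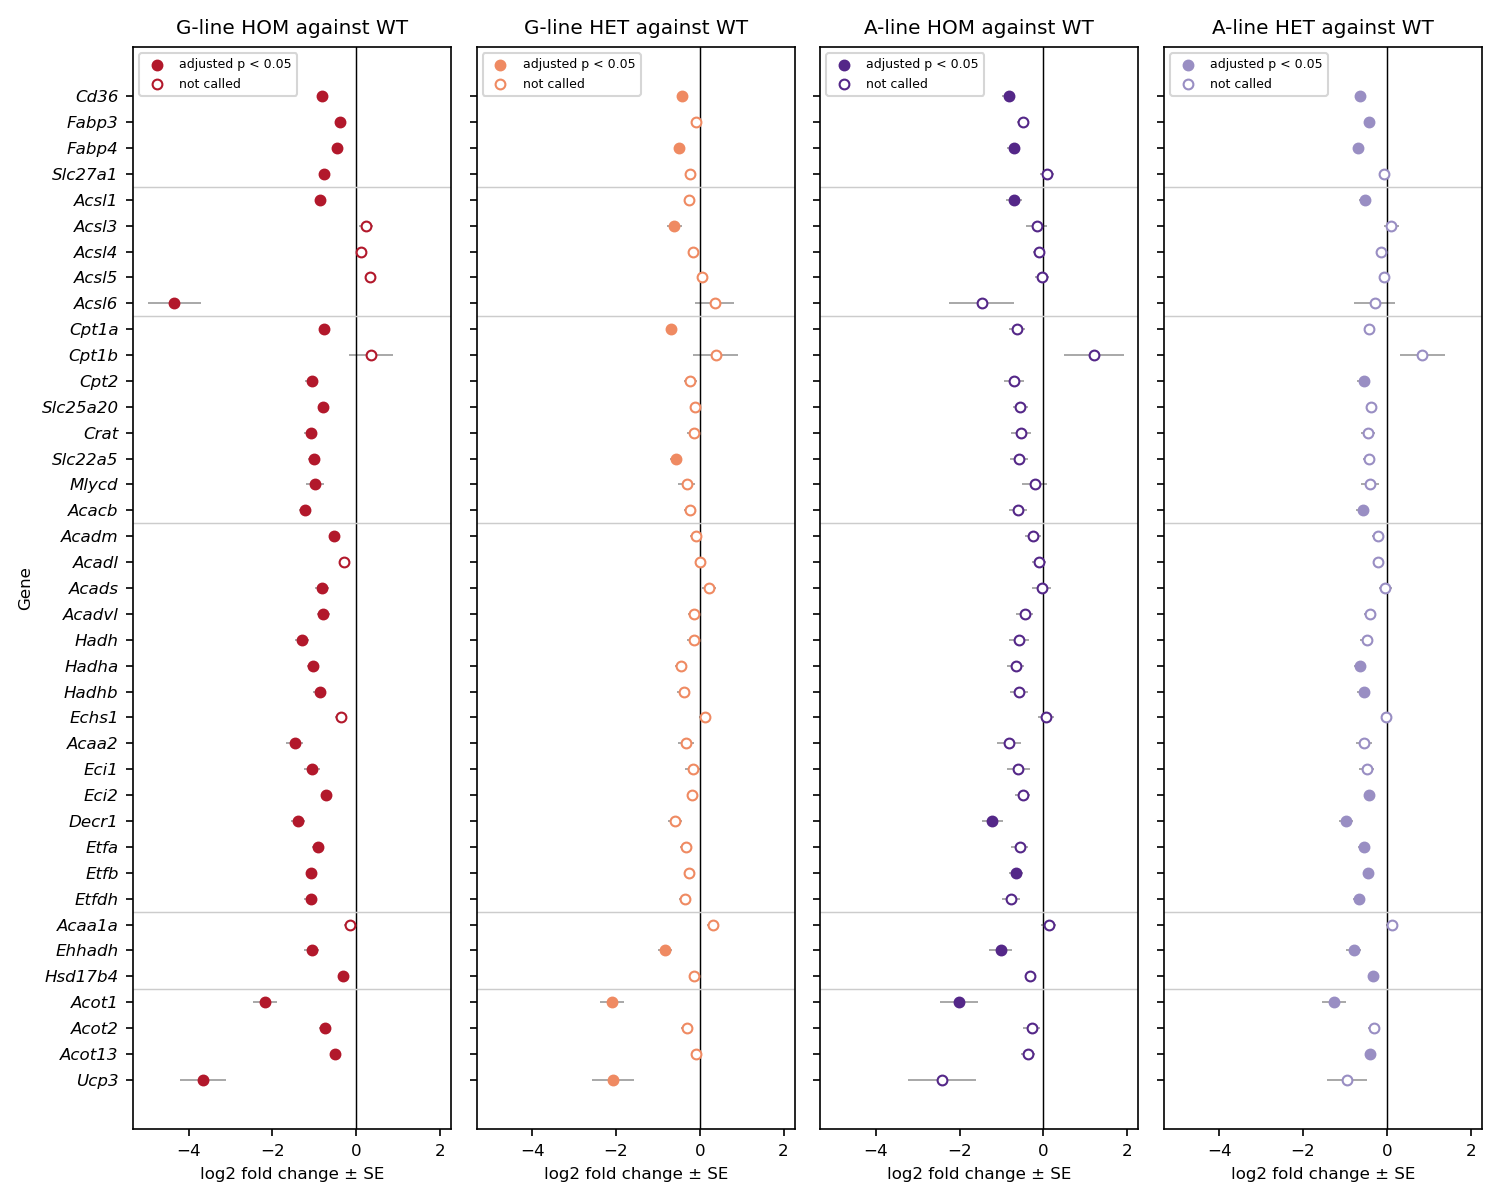
Log2 fold change ± SE (x axis) of each member (rows) against WT in G-line HOM, G-line HET, A-line HOM and A-line HET, members grouped by step. Filled points passed the test and open ones did not. Acsl6 and Ucp3 in G-line HOM lie far below the other members.

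Leaving out any single library kept all 32 calls. Counting the shared pair as A-line HOM, which leaves 1 WT library, left the members' median at -0.88, and fewer of them passed. Cardiomyocyte markers moved too: 7 of 15 fell and 1 rose, with a median of -0.41 and sums of 53580 to 59040 CPM in G-line HOM and 65740 to 73440 CPM in WT. Of 10 fibroblast markers 5 rose, with a median of 1.01 and sums of 3765 to 4926 CPM in G-line HOM and 1759 to 3254 CPM in WT, and of 11 macrophage markers none passed, with sums of 247 to 368 CPM in G-line HOM and 280 to 407 CPM in WT. No marker of these 3 lists was at 0 in any library. The part of cell makeup in the result was not tested. With ribosomal RNA, Xist and Y-linked genes left out, 32 members fell, where 26.2% of all genes passed.

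Neighbouring genes of the pathway were counted in the same way, beside the 13.3% of all genes that were lower and the 13.1% that were higher. Of 41 tested genes of a list of 44 other fatty acid oxidation and acyl-CoA genes, 20 fell, 3 rose and 18 did not pass in G-line HOM against WT, with a median of -0.47. The mitochondrial CoA carrier Slc25a42 averaged 7.19 ± 1.34 CPM in G-line HOM and 28.9 ± 3.31 CPM in WT (SD, n = 3 each; 4.03-fold lower, adjusted p = 4.47e-06). The dienoyl-CoA isomerase Ech1 averaged 384 ± 74.1 CPM in G-line HOM and 1075 ± 114 CPM in WT (2.80-fold lower, adjusted p = 3.76e-05). Acad11, an acyl-CoA dehydrogenase, and Ivd, which acts in leucine breakdown rather than on fatty acids, were 2.41-fold (adjusted p = 2.82e-05) and 2.56-fold lower (adjusted p = 3.55e-05). The 3 that rose were the transporter Slc27a6, at 1.20 ± 0.119 CPM in G-line HOM and 0.384 ± 0.118 CPM in WT (3.10-fold, adjusted p = 0.0153), the thioesterase Acot9 (1.64-fold, adjusted p = 0.000205) and the desaturase Scd2 (1.43-fold, adjusted p = 0.0332), an enzyme of lipid synthesis. Of 17 regulators and targets of PPAR, ERR and PGC-1, 8 fell, none rose and 9 did not pass, with a median of -0.42. The retinoid receptor Rxrg, a partner of PPAR, averaged 11.9 ± 2.88 CPM in G-line HOM and 37.1 ± 3.96 CPM in WT (3.14-fold lower, adjusted p = 3.26e-05). The lipid droplet protein Plin5 was 1.93-fold lower (adjusted p = 7.91e-05), Rxra 1.34-fold (adjusted p = 0.00167) and the receptor Esrrg 1.38-fold (adjusted p = 0.0027).

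The G-line HOM hearts were then set against G-line HET hearts, which differ from them in the number of mutant alleles. Of the 39 members 26 fell and 1 rose in G-line HOM, where 14.6% of all genes passed, 8.42% lower and 6.22% higher. The members' median was -0.53 against 0.04 over all genes. In 31 members every G-line HOM library lay below every G-line HET library and in 3 above, which 17.1% and 17.9% of all genes did. In mitochondrial beta-oxidation 14 of 15 members fell, and the exception was Acadl (-0.31, adjusted p = 0.083). In the shuttle 5 of 8 fell, in uptake 3 of 4, and 1 member each of the peroxisomal enzymes (Acaa1a) and of the thioesterases and Ucp3 (Acot13). Hadh had 396, 379 and 394 CPM in G-line HET, against which G-line HOM was 2.23-fold lower (-1.15 ± 0.17, adjusted p = 0.00189). Etfb, at 300, 297 and 293 CPM in G-line HET, was 1.77-fold lower in G-line HOM (adjusted p = 0.00156). Acads had 177, 129 and 128 CPM in G-line HET and was 2.05-fold lower in G-line HOM (adjusted p = 0.00242). Acacb, at 394, 371 and 321 CPM in G-line HET, was 1.99-fold lower in G-line HOM (adjusted p = 0.00191), and Crat, at 368, 389 and 351 CPM in G-line HET, 1.92-fold lower (adjusted p = 0.00314). Acsl6 stood at 12.2, 11.5 and 12.8 CPM in G-line HET, all above the highest WT library, and was lower in G-line HOM by 4.69 ± 0.64 on the log2 scale (adjusted p = 0.00242).

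The 1 member that rose was Acsl3, a synthetase known from lipid droplets. It had 6.66, 8.81 and 7.80 CPM in G-line HOM and 4.501, 3.89 and 4.58 CPM in G-line HET, 1.79-fold higher (0.84 ± 0.17, adjusted p = 0.00709). Its G-line HET libraries were the lowest of the 13. Without any single library 16 of the 27 calls held, Acsl3 among them. Without G-line HOM replicate 1, a library with atrial and clock transcripts, 16 members passed, 15 of them lower, where 8.33% of all genes passed. Of the other fatty acid oxidation genes 18 of 41 fell and 1 rose, and of the regulators and targets 7 of 17 fell. The cardiomyocyte markers fell in 8 of 15, with a median of -0.45, and summed to 53580 to 59040 CPM in G-line HOM and 65490 to 73540 CPM in G-line HET. The part of this in the members' result was not tested.

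In G-line HET hearts 8 of 39 members fell against WT by the test and none rose. Of all genes 7.52% passed, 3.54% lower and 3.97% higher. The median was -0.23 against -0.01 over all genes. In 23 members all G-line HET libraries lay below all WT libraries, as in 16.5% of all genes. The 8 were Cd36, Fabp4, Acsl3, Cpt1a, Slc22a5, Ehhadh, Acot1 and Ucp3. None of the 15 mitochondrial beta-oxidation members passed, the nearest being Decr1 (-0.59, adjusted p = 0.0517) and Hadha (-0.45, adjusted p = 0.0662). Acot1 had 2.00, 1.73 and 1.94 CPM in G-line HET and 6.14, 8.55 and 9.63 CPM in WT, 4.28-fold lower (-2.10 ± 0.29, adjusted p = 0.00067). Cpt1a had 56.6, 50.4 and 57.8 CPM in G-line HET and 82.4, 92.8 and 89.9 CPM in WT, 1.61-fold lower (-0.69 ± 0.13, adjusted p = 0.00468). Ehhadh had 9.61, 10.6 and 10.3 CPM in G-line HET, below every WT library and 1.77-fold lower than WT (adjusted p = 0.011). Ucp3 had 10.3, 16.9 and 12.2 CPM in G-line HET, 4.19-fold lower than WT (adjusted p = 0.0397), and Cd36 1319, 1500 and 1397 CPM, 1.35-fold lower (adjusted p = 0.02). Fabp4 (1.41-fold, adjusted p = 0.0134), Slc22a5 (1.49-fold, adjusted p = 0.0273) and Acsl3 (1.52-fold, adjusted p = 0.0456) were lower without overlap. Cell type markers moved as well. Of 12 endothelial markers Kdr (-0.66, adjusted p = 0.0467) and Emcn (-0.57, adjusted p = 0.00943) fell and 5 were lower without overlap, with sums of 1075 to 1383 CPM in G-line HET and 1304 to 1450 CPM in WT. Of 15 cardiomyocyte markers 1 rose and none fell. Of 10 fibroblast markers 1 rose, Mfap5 (1.42, adjusted p = 0.0314), and all 10 were positive, with sums of 2654 to 4515 CPM in G-line HET and 1759 to 3254 CPM in WT. Their part in the result, that for Fabp4 included, was not tested.

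These calls depended on single libraries more than those of G-line HOM. Acot1 and Cpt1a held without any single library. The count was 2 without G-line HET replicate 1 (2.98% of all genes) or without WT replicate 3 (3.47%). It was 3 without WT replicate 1 (3.15%) and 4 without G-line HET replicate 3 (4.28%). Fitting G-line HET and WT alone gave 15, where 13.3% of all genes passed. The share of all genes thus moved with these counts, from 7.52% with all libraries. With the shared pair left out or counted as A-line HOM, 1 WT library remains. The members' median was then -0.19 and -0.18. For 6 of the 8 genes the 2 G-line groups were not told apart, with 95% intervals of the log2 fold change of G-line HOM over G-line HET that ran from -0.19 to 0.28 for Fabp4, -0.35 to 0.19 for Cpt1a, -0.75 to -0.12 for Slc22a5, -0.62 to 0.15 for Ehhadh, -0.72 to 0.57 for Acot1 and -2.81 to -0.39 for Ucp3. These intervals are not adjusted over genes, and the adjusted p was 0.0619 for Slc22a5 and 0.0788 for Ucp3. In the means of the G-line, 29 of 39 members had HOM below HET and HET below WT, and HOM was the lowest in 34.

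**Figure D4:**
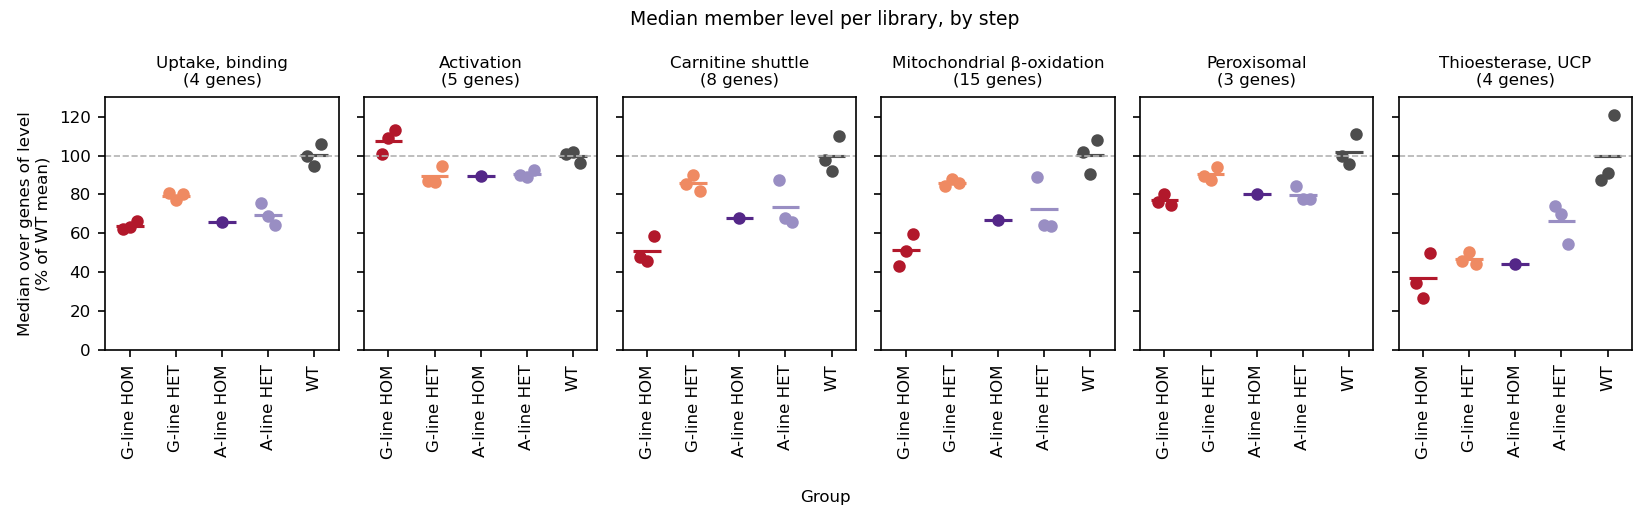
Median level of the members of each step, as a percent of the WT mean, per library (points) in G-line HOM, G-line HET, A-line HOM, A-line HET and WT, with a short line at the group mean and a dashed line at 100. For mitochondrial beta-oxidation the 3 G-line HOM libraries are lowest, G-line HET lies closer to WT, and A-line HET replicates 2 and 3 lie below replicate 1.

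In the A-line, 7 of 39 members fell in the 1 A-line HOM library against WT and none rose, where 4.68% of all genes passed, 1.86% lower and 2.82% higher. The median was -0.56 against -0.01 over all genes, and 31 members lay below all WT libraries, as did 34.4% of all genes. A single library has no spread of its own, so the test assumes that it varies like the other groups. Cd36 had 1070 CPM in A-line HOM, 1.77-fold lower than WT (-0.83 ± 0.15, adjusted p = 0.00763), and Fabp4 264 CPM, 1.64-fold lower (adjusted p = 0.0243). Decr1 had 192 CPM, 2.32-fold lower (-1.21 ± 0.26, adjusted p = 0.0192), and Acot1 2.00 CPM, 4.05-fold lower (adjusted p = 0.0229). Acsl1 at 649 CPM (adjusted p = 0.0475), Etfb at 225 CPM (adjusted p = 0.0392) and Ehhadh at 8.91 CPM (adjusted p = 0.045) were the other 3. Ucp3, at 10.3 CPM, lay below all WT libraries but did not pass (-2.42, adjusted p = 0.143), and neither did Acsl6 at 3.43 CPM (-1.47, adjusted p = 0.354). Cell type markers differed in the A-line HOM library too. Of 15 cardiomyocyte markers 11 lay below all WT libraries and 4 above, with a median of -0.26. Of 12 endothelial markers 8 lay below (median -0.20), and of 11 macrophage markers 4 (median -0.40). Of 10 fibroblast markers 6 lay above, with a median of 0.54. Of all genes 34.4% lay below. The share of all genes above was not counted, so the 4 and the 6 above have no such measure beside them. The part of cell makeup in the result was not tested. Cd36 held when any 1 WT library was left out. The members' median was -0.62 without WT replicate 2, -0.56 without WT replicate 1 and -0.48 without WT replicate 3. It was -0.56 with DESeq2, -0.61 without the libraries with atrial transcripts and -0.56 when these 2 groups alone were fitted. With the shared pair left out it was -0.54, with the pair counted as A-line HOM -0.18 and with it in both groups -0.16. How many members passed depended strongly on the setting, as listed in the section on processing.

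In A-line HET hearts 17 of 39 members fell against WT and none rose, where 7.96% of all genes passed, 3.97% lower and 3.99% higher. The median was -0.43 against 0.02 over all genes. All A-line HET libraries lay below all WT libraries in 23 members, as in 12.8% of all genes. The 17 spread over all 6 steps: 3 of 4 in uptake, 1 of 5 in activation, 2 of 8 in the shuttle, 7 of 15 in mitochondrial beta-oxidation, 2 of 3 peroxisomal members and 2 of 4 among the thioesterases and Ucp3. Decr1 had 295, 194 and 188 CPM in A-line HET and 465, 389 and 479 CPM in WT, 1.97-fold lower (-0.98 ± 0.17, adjusted p = 0.0044). Cd36 had 1325, 1238 and 1104 CPM in A-line HET, below all WT libraries and 1.55-fold lower (-0.63 ± 0.10, adjusted p = 0.00215). Fabp4 had 313, 262 and 234 CPM in A-line HET, 1.60-fold lower than WT (adjusted p = 0.0022). Fabp3, with 1571, 1442 and 1409 CPM, was 1.34-fold lower (adjusted p = 0.0147). Hadha had 1019, 802 and 864 CPM in A-line HET and was 1.55-fold lower than WT (adjusted p = 0.0133), and Acot1, at 3.86, 2.57 and 3.72 CPM, was 2.40-fold lower (adjusted p = 0.0137). The other 11 were Acsl1, Cpt2, Acacb, Hadhb, Eci2, Etfa, Etfb, Etfdh, Ehhadh, Hsd17b4 and Acot13, 1.25-fold to 1.73-fold lower. Ucp3 had 39.6, 34.5 and 11.6 CPM in A-line HET (-0.95, adjusted p = 0.294). Among the cell type markers, 2 of 15 of cardiomyocytes fell, Tnnc1 (-0.41, adjusted p = 0.0357) and Myl3 (-0.74, adjusted p = 0.00696), with sums of 54950 to 69250 CPM in A-line HET and 65740 to 73440 CPM in WT. Of 12 endothelial markers Emcn fell (-0.47, adjusted p = 0.025), with sums of 1077 to 1415 CPM in A-line HET and 1304 to 1450 CPM in WT. None of 10 fibroblast markers passed, but all 10 were positive, with a median of 0.82 and sums of 2843 to 4704 CPM in A-line HET and 1759 to 3254 CPM in WT. The part of these cells in the result was not tested.

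The A-line HET libraries were uneven. At the median member, replicates 1, 2 and 3 stood at 86.9%, 66.1% and 64.8% of the WT mean, and replicate 1 was the highest of the 3 in 32 of 39 members. Acsl6 showed the split most, with 15.2 CPM in replicate 1 and 4.55 and 4.15 CPM in replicates 2 and 3. Without replicate 1 the number of members that fell was 24, where 11.6% of all genes passed. It was 3 without replicate 2 (4.05% of all genes) and 4 without replicate 3 (4.04%). It was 4 without WT replicate 1 (3.79%), 15 without WT replicate 2 (6.82%) and 3 without WT replicate 3 (3.61%). Cd36, Decr1 and Fabp4 held in all of these. Replicate 2 is a library with shifted clock genes and replicate 3 one with atrial transcripts. Without the 3 atrial libraries 8 members fell, where 3.87% of all genes passed, and without the 2 clock-shifted libraries 7, where 4.84% did. The median log2 fold change was -0.40 and -0.38 without them, against -0.43 with all libraries. An unadjusted p under 0.05 was found for 26 and 24 members, against 26. Each of these fits keeps replicate 2 or 3, the lower A-line HET libraries, and the first also leaves out WT replicate 2. That library stood at 92.9% of the WT mean. Without A-line HET replicate 2 alone the median was -0.37, and without replicate 3 alone -0.35. The part of these libraries in the result was not tested. With the shared pair left out, which leaves 1 WT library, the median was -0.46 and most of the calls were lost. Of the other fatty acid oxidation genes 12 of 41 fell in A-line HET and 5 of 41 in A-line HOM, and of the regulators and targets none of 17 passed in either.

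Within the A-line, HOM and HET could not be told apart: none of 39 members passed, and none had an unadjusted p under 0.05. DESeq2 called none, and of all genes 0.0227% passed. The median of the members was -0.06, on 1 A-line HOM library. Means had HOM below HET and HET below WT in 27 of 39 members.

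The 2 mutations were compared at matched allele number. In A-line HET against G-line HET no member passed, where 0.0284% of all genes did. Of the members 7 had an unadjusted p under 0.05 and DESeq2 called 2, where it called 1.59% of all genes. Acsl3 was nearest, with 5.91, 8.34 and 6.97 CPM in A-line HET and 4.501, 3.89 and 4.58 CPM in G-line HET (0.71, 95% interval 0.34 to 1.09, adjusted p = 0.143). Fabp3 was lower in A-line HET without overlap (-0.34, 95% interval -0.55 to -0.13, adjusted p = 0.181) and Acot1 higher (0.83, 95% interval 0.19 to 1.47, adjusted p = 0.27). Without A-line HET replicate 1, 6 members passed, 5 lower and 1 higher, where 3.47% of all genes passed. A call against WT in one line and not in the other is no test of a difference between them. Both lines also share the WT libraries.

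In A-line HOM against G-line HOM no member passed either, where 0.0398% of all genes did. Of the members 11 had an unadjusted p under 0.05 and DESeq2 called 1, where it called 1.41% of all genes. The median of the members was 0.31, against -0.01 over all genes, and 33 of the 39 had positive values, on 1 A-line HOM library. Cardiomyocyte markers were positive in 12 of 15 (median 0.18), and regulators and targets in 14 of 17 (median 0.40). The part of cell makeup in this was not tested. Slc27a1 was nearest, at 90.05 CPM in A-line HOM and 47.9, 52.5 and 48.5 CPM in G-line HOM (0.86, 95% interval 0.51 to 1.21, adjusted p = 0.084). Acads, at 120 CPM in A-line HOM and 67.6, 71.2 and 72.8 CPM in G-line HOM (0.77, adjusted p = 0.227), and Acsl6, at 3.43 CPM in A-line HOM (2.87, adjusted p = 0.268), did not pass. Counting the shared pair as A-line HOM gave 25 members, all higher in A-line HOM, where 9.67% of all genes passed. Of the 3 A-line HOM libraries 2 are then the columns used here as WT. The 25 thus largely restate G-line HOM against WT and are no separate evidence on the lines.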

How the data were processed

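Left ventricular total RNA was sequenced from TruSeq Total RNA Gold libraries, as the labels' protocols state. The submitters' processing notes name bcl2fastq 2.20.0.422, Trimmomatic 0.39 and STAR 2.7.4a, and the build mm39. Raw counts by symbol were deposited by the authors in 3 tables (WT, G-line, A-line) and entered the tests unchanged. How reads were counted, on which annotation and with or without strand, is not given in the sources used here.

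Groups came from sample titles. Genes were kept where at least 3 libraries reached 0.422 CPM (10 counts in the median library) and the total was at least 15. CPM values were computed here with TMM factors. One model with a mean per group was fitted to 13 libraries with edgeR 4.0.16 (R 4.3.3; robust quasi-likelihood, 8 residual degrees of freedom, common biological variation 17.1%). Each comparison was tested with its two-sided F test and Benjamini-Hochberg adjustment over 17588 genes, with a threshold of 0.05. Errors of log2 fold changes are SE, from the F statistic, and all adjusted p-values come from this test unless DESeq2 (1.42.0) is named. The per-library medians used a pseudocount of 0.1 CPM. The procedure was tested on simulated data.

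Values per library are given, in each step, for up to 4 members with the smallest adjusted p in G-line HOM against WT, for up to 6 members called in each comparison of mutant groups, and for Acot1, Acot2 and Acaa1a; up to 4 genes are named per neighbouring list. Cpt1a, Cpt1b, Hadhb, Acaca, the 3 neighbouring genes that rose, the markers named and the members nearest the threshold in comparisons without calls were named after their values were seen. The members, lists and alternatives were chosen with earlier results of these data known. Alternatives were DESeq2, its size factors in edgeR, other filters, fits of the compared groups only, a block for the replicate number, leaving out ribosomal RNA, Xist and Y-linked genes, each library left out and 3 other treatments of the shared pair. Leaving out the libraries with atrial transcripts or shifted clock genes was chosen after seeing the data. No sign of pairing by replicate number was seen: over 18 pairs with the same number, deviations from the group means correlated at -0.296 to 0.189. Libraries with atrial transcripts correlated across numbers, at 0.468 for A-line HET replicate 3 and WT replicate 2. These values cannot show whether libraries of one number shared a batch.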

Additional observations from a re-analysis of the deposited data

How the results depend on the processing

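The 32 calls in G-line HOM against WT became 18 to 34 under the alternatives run. The counts that moved were these. With the shared pair counted as A-line HOM, 18 members passed in G-line HOM against WT, 0 in G-line HET, A-line HOM and A-line HET against WT, 13 in G-line HOM against G-line HET and 25 in A-line HOM against G-line HOM. With the pair left out, 0 passed in G-line HET and A-line HOM against WT and 1 in A-line HET against WT. With it in both groups, 2 passed in G-line HET, 0 in A-line HOM and 0 in A-line HET against WT, and 26 in A-line HOM against G-line HOM. The last comparison then sets libraries used elsewhere as WT against G-line HOM, which fixes much of the 25 and 26. Fits of only the groups compared gave 15 in G-line HET, 22 in A-line HOM and 11 in A-line HET against WT. DESeq2 gave 14 in A-line HOM against WT (7.91% of all genes) and 2 in A-line HET against G-line HET (1.59%). In A-line HOM against G-line HOM it gave 1 (1.41%), and no filter beyond 1 count also gave 1 there (0.176%). Without the atrial libraries, 12 passed in A-line HOM and 8 in A-line HET against WT, and without the clock-shifted ones 7 in A-line HET against WT. Leaving out single libraries gave 2 to 7 in G-line HET against WT, 1 to 5 in A-line HOM against WT, 3 to 24 in A-line HET against WT, 16 to 28 in G-line HOM against G-line HET, 0 to 6 in A-line HET against G-line HET and 0 to 1 in A-line HOM against G-line HOM. The share of all genes that passed moved too. With the shared pair counted as A-line HOM or left out, it fell in all comparisons against WT. It also fell in G-line HOM against G-line HET. These fits hold 1 WT library. The members' median in G-line HOM against WT was -0.88 in both, against -0.82 with all libraries. The drop to 18 thus came without a smaller median change. With the pair in both groups, the share was 2.45% in G-line HET and 0% in A-line HOM and A-line HET against WT. In A-line HOM against G-line HOM it was 12.8%. Leaving out single libraries, the share was 2.98% to 6.72% in G-line HET and 3.61% to 11.6% in A-line HET against WT. In A-line HOM against WT, on 1 A-line HOM library, it was 2.31% to 3.58%. In G-line HOM against G-line HET it was 6.67% to 16.0%. In A-line HET against G-line HET it was 0% to 3.47%, and in A-line HOM against G-line HOM 0% to 0.873%. With only the compared groups it was 13.3% in G-line HET, 9.05% in A-line HOM and 6.44% in A-line HET against WT. Without the atrial or clock-shifted libraries, 3.87% and 4.84% of all genes passed in A-line HET against WT. Without the atrial ones 5.42% passed in A-line HOM against WT. These alternatives change the libraries or genes fitted. The cause of each shift was not tested.

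With the replicate block, 32 members passed in G-line HOM, 6 in G-line HET, 4 in A-line HOM and 12 in A-line HET against WT, and 23 in G-line HOM against G-line HET. With it, 23.6% of all genes passed in G-line HOM, 5.52% in G-line HET, 2.87% in A-line HOM and 5.95% in A-line HET against WT. In G-line HOM against G-line HET 11.3% did. Of 12 libraries 2 correlated best with their own number, so no sign of pairing by number was seen.

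Of the log2 fold changes of single genes, 1638 values under alternatives kept their side of the threshold, 350 lost it, 39 gained it and 6 changed sign. Acot1 had 0.14 in A-line HOM against WT with the pair counted as A-line HOM. In G-line HOM against G-line HET, leaving out single libraries gave -0.447 to 0.19 for Acot1, -0.222 to 0.0757 for Cpt1a and -0.0295 to 0.129 for Fabp4. Fabp4 had -0.0283 without the atrial libraries and -0.0301 without the clock-shifted ones. None of these 3 genes had passed the test in that comparison. Members under 1 CPM in a group, such as Acsl6 and Cpt1b, are limited by depth.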
